A study of Mus musculus with 27 samples.

Results

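A set of genes that stop or drive the cell cycle were followed in the deposited DNA methylation table of differentiated C2C12 cells, a mouse muscle line whose myoblasts fuse into myotubes when serum is lowered. They are the Cdk inhibitor genes Cdkn1a, Cdkn1b, Cdkn2a, Cdkn2b and Cdkn2c, the retinoblastoma gene Rb1, the cyclin genes Ccnd1 and Ccnb2, the transcription factor gene E2f2 and the replication gene Mcm2. The 10 members were taken by name. Their rows were those from 5 kb upstream of the gene start to 1 kb past the gene end in mm10, read along the direction of transcription, which gave 865 of the 937644 rows of the table. Of the 10 genes, 7 had at least 1 row.

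Methylation was measured by reduced representation bisulfite sequencing (RRBS), which cuts DNA with a restriction enzyme, converts unmethylated cytosines with bisulfite and sequences the short, CpG-rich fragments. The 27 libraries came from C2C12 cells that had been differentiated in 2% horse serum and then received 50% horse serum for 2 h, a serum shock of the kind used to set cultured cells to a common circadian phase. The groups were 9 time points after the shock, at 12, 18, 24, 30, 36, 42, 48, 54 and 60 h, with 3 libraries each. All groups shared the cell line and the shock, and no unshocked cells were analysed here, so a change caused by the shock itself cannot be told apart from the state of the cells. The labels do not tell whether replicates were separate cultures, so p-values measure the spread between these libraries, which may be technical. C2C12 is a single line, and methylation levels alone do not show how many of its cells had fused into myotubes or left the cell cycle.

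In a dividing cell, cyclin D with Cdk4 or Cdk6 phosphorylates the retinoblastoma protein, which then releases E2F factors to switch on genes for DNA replication and mitosis. Cdk inhibitors oppose this step: the INK4 proteins, encoded by Cdkn2a, Cdkn2b and Cdkn2c, bind Cdk4 and Cdk6, while p21, encoded by Cdkn1a, and p27, encoded by Cdkn1b, bind several cyclin-Cdk complexes. Myoblasts leave the cell cycle for good when they fuse, and p21, p27, p18 and the retinoblastoma protein are known for their part in that exit. Methylation of CpG islands at gene starts is known as a mark of silenced genes, and most active genes carry unmethylated islands.

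Each value in the table is a methylation level as deposited, given here as a percent. The table carries no read counts, so depth is unknown and no counting interval can be given. Over the kept positions, the mean level of a library lay between 11.4% (12 h replicate 3) and 12.7% (48 h replicate 3). Libraries lacked a value at 1640 to 21925 positions, and 5.15% to 25.4% of a library's levels were exactly 0. The library with most missing values and most zeros was 12 h replicate 3. Positions with a value in all 27 libraries were joined into runs wherever the next one lay within 200 bp, with at least 3 positions per run. This gave 18447 runs, of which 13 lay at the 7 genes, and the level of a run is the mean over its positions. Neighbouring rows were not separate measurements: among 276 neighbouring pairs of member rows that lay 1 bp apart, the levels differed by 0.0369 points on average. Among 398 pairs at 2 to 20 bp they differed by 0.349 points, and the median correlation of such a pair over libraries was 0.996. A value given for a single position therefore describes its neighbourhood as well.

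The rows lay at the gene starts. Of the 865 rows, 528 lay in the start part, from 1000 bp upstream to 500 bp downstream of the gene start, 226 lay further into the gene, 111 lay further upstream, and 0 lay in the end part, from the last 500 bp to 1 kb past the end. Rb1 had 221 rows, Ccnd1 had 169, Cdkn2c had 161, Mcm2 had 108, Cdkn1b had 84, E2f2 had 82 and Ccnb2 had 40. The methylation of the last part of these genes was therefore not analysed here, and most of each gene body had no row. Distances below are counted from the gene start, negative upstream and positive into the gene.

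Methylation was low in the run nearest to each of the 7 measured starts. These runs held means between 1.20% (E2f2) and 3.66% (Mcm2), and the median of the 7 was 2.24%. Start windows, from 1000 bp upstream to 500 bp downstream, are another measure, with fixed ends. At Mcm2 and Ccnb2 they gave the same means as the runs. They took in a further run at Ccnd1 and cut the run short at Rb1. In the start windows the median of the 7 members was 2.95%, with 6 of 7 under 5%, and over all 10483 gene-start windows it was 3.47%, with 60.9% under 5%. Ccnd1 at 6.78% and Mcm2 at 3.66% lay above the median of all windows. Of the member rows, 85.3% had a mean under 5%, against 62.7% of all complete rows. These sets are unlike: of 865 member rows 797 were complete and 528 lay in the start part. The other set holds complete rows from anywhere in the table. Member rows of 10% or more numbered 25, or 2.89%, against 26.1% of all complete rows, and no member row reached 50%. Those 25 rows lay at 4 genes, 13 at Ccnd1, 7 at Rb1, 4 at Mcm2 and 1 at Ccnb2.

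**Figure D1:**
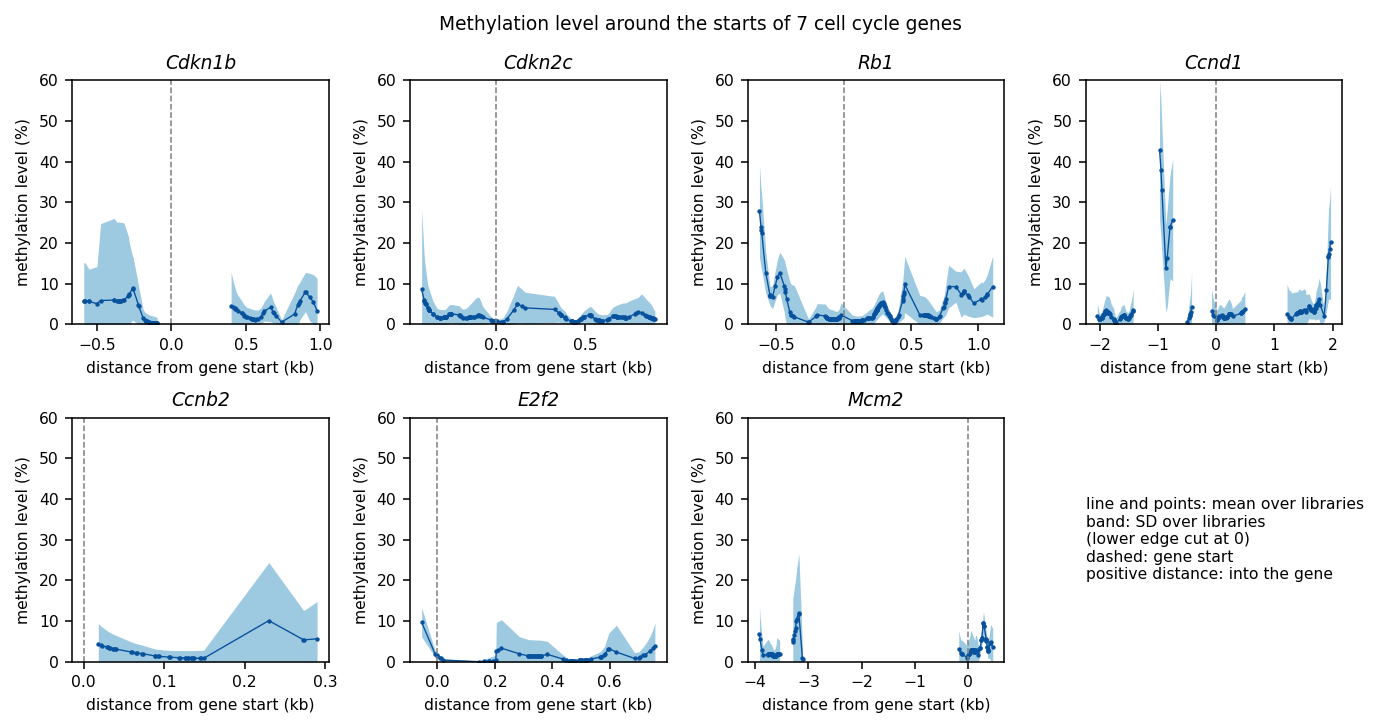
Methylation level (percent, vertical axis) against the distance from the gene start (kb, horizontal axis) for the 7 genes with rows; points and line are the mean over the libraries with a value and the band is the SD. Levels stay mostly under 10%, with the highest mean, 42.9%, at -977 bp of Ccnd1.

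**Figure D2:**
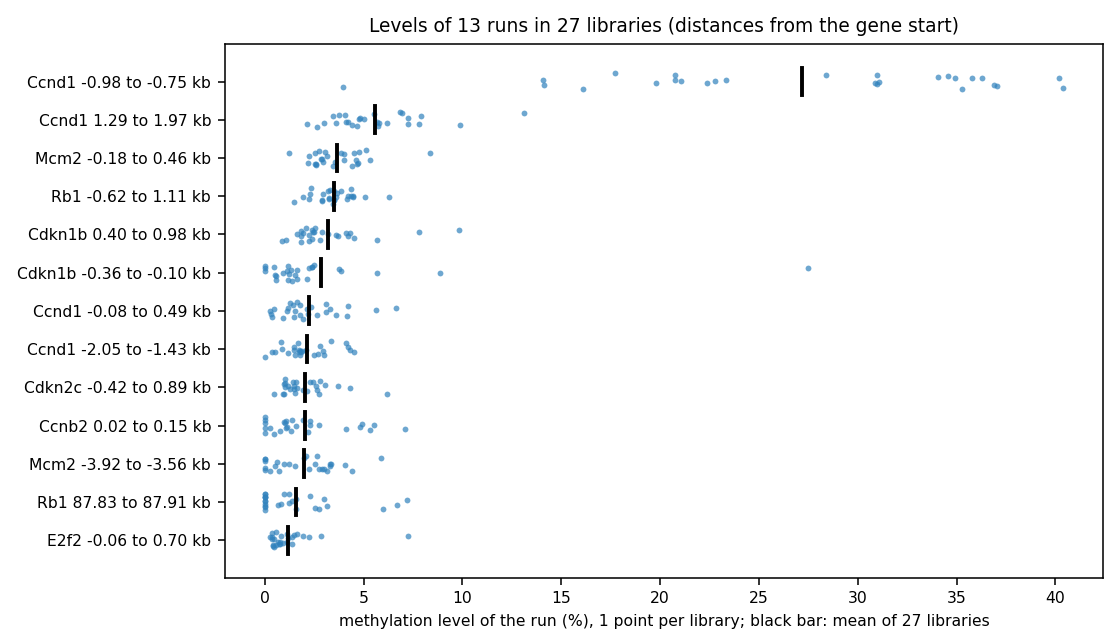
Level of each of the 13 runs (percent, horizontal axis) in 27 libraries, 1 point per library, with the mean as a black bar. The run from -977 to -751 bp of Ccnd1 stands at a mean of 27.2%, and the other 12 have means from 1.20% to 5.58%.

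The inhibitor genes fell into 2 sets, with rows (Cdkn1b and Cdkn2c) and without (Cdkn1a, Cdkn2a and Cdkn2b). For the interval on chromosome 4 from 89270000 to 89315000, which holds Cdkn2a and Cdkn2b, the table had 0 rows. The nearest rows stood at 89137781 before it and at 91400536 after it, so the stretch with no row spanned 2.26 Mb. Besides Cdkn2a (chr4:89274473-89294619, minus strand), which encodes p16 and p19Arf, and Cdkn2b (chr4:89306289-89311032, minus strand), which encodes p15, it holds the protein-coding genes Dmrta1, Zfp352 and Elavl2. The same length held 400 rows just before the stretch and 184 rows just after it. By length alone such a stretch is common: of 472 autosomal gaps of 1 Mb or more, 111 were longer, 8 of them on chromosome 4.

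RRBS reaches a position only where 2 cut sites lie at a suitable distance, so the promoters (here 250 bases before to 50 after the start, RefSeq, GRCm38.p6) were searched for CCGG, the site of the enzyme MspI that RRBS commonly uses; the labels write the enzyme as MpsI. CCGG reads the same on both strands, and 54.6% of 10583 RefSeq promoters held it. Only 1 promoter per gene was searched, at the outer end of the gene in RefSeq. Other starts of a gene, and which product each start serves, were not looked at. At that start the Cdkn2a promoter held 45 CpGs and 3 CCGG sites and the Cdkn2b promoter held 18 CpGs and 2 CCGG sites. The Cdkn1a promoter there held 2 CpGs and 0 CCGG sites. Among autosomal gene starts with 3 or 4 CCGG sites in that window, 93.9% had a row in the start part, against 74.3% with 1 or 2 sites and 17.2% with 0 sites. Of the 472 gaps, 461 held no searched gene start with 3 or more CCGG sites, and the gap over Cdkn2a held 1, Cdkn2a itself. Genes without a promoter entry at their outer end, among them Elavl2 in that gap, were not searched. Why the Cdkn2a and Cdkn2b starts have no row was not tested. The Cdkn2a and Cdkn1a promoters are shown because they differ in cut sites while neither was measured, with capitals marking CCGG (Cdkn2a chr4:89294570-89294869, minus strand; Cdkn1a chr17:29090729-29091028, plus strand).
Cdkn2a: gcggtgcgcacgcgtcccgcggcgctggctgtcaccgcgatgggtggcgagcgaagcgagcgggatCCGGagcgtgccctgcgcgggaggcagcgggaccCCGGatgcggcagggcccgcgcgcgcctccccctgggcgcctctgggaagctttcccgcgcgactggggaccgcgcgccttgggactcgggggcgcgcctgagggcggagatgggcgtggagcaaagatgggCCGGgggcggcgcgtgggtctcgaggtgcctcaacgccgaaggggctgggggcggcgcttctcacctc
Cdkn1a: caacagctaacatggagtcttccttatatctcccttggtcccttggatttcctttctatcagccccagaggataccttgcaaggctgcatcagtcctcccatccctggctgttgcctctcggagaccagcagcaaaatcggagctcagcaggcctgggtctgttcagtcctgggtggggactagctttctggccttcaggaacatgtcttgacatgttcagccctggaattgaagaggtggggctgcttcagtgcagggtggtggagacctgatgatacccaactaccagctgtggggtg

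**Figure D3:**
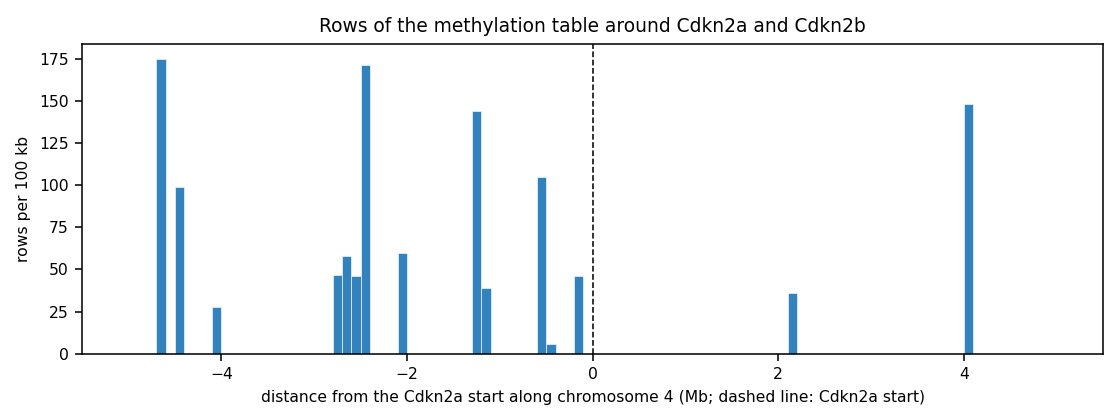
Rows of the table per 100 kb (vertical axis) by distance from the Cdkn2a start along chromosome 4 (Mb, horizontal axis); the dashed line marks the Cdkn2a start. No bar stands at the line, inside a stretch of 2.26 Mb without a row.

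Cdkn2c, which encodes the Cdk4 and Cdk6 inhibitor p18, had 1 run of 159 positions that crossed its start, from -417 to 890 bp (chr4:109665866-109667173, minus strand). Its level was 2.03% ± 1.24 (SD, n = 27), with a lowest library of 0.483%, a median of 1.58% and a highest of 6.19%. The 2 libraries above 4% were 48 h replicate 3 at 6.19% and 36 h replicate 2 at 4.33%. The Cdkn2c start was covered most fully of the promoters matched: 27 of its 33 promoter CpGs had a row, with CpG means between 0.661% and 2.28%. The sequence shows how the measured CpGs, in capitals, spread over the promoter of an inhibitor gene (chr4:109666707-109667006, minus strand).
Cdkn2c: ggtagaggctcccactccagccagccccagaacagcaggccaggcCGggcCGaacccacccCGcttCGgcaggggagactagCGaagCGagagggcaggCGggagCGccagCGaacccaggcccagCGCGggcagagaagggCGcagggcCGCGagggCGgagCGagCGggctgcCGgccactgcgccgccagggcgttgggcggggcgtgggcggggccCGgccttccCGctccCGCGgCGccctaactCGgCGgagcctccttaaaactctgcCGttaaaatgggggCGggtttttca

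Cdkn1b, which encodes p27, had a run on each side of its start with no complete position between -96 and 401 bp. The upstream run, from -365 to -96 bp (chr6:134920036-134920305, plus strand, 38 positions), stood at 2.84% ± 5.28 (SD, n = 27), with a lowest of 0% and a median of 1.37%. Its SD rested on 1 library: 30 h replicate 2 was at 27.5%, while the next highest, 54 h replicate 3, was at 8.89% and the other replicates at 30 h were at 0.552% and 2.40%. The downstream run, from 401 to 978 bp (37 positions), did not show that library apart, with 2.25% in 30 h replicate 2, and its mean was 3.21% ± 1.98 (SD, n = 27). The downstream run was higher than the upstream one in 20 of 27 libraries, by 0.374 points on average, and this difference did not pass (paired sign-flip permutation test, p = 0.843). Without 30 h replicate 2 the difference was 1.36 points and passed, with an adjusted p of 0.017 over the 6 pairs of runs tested. In the promoter 19 of 30 CpGs had a row, from 4.66% at -221 bp down to 0.294% at -97 bp. Beyond the promoter, the upstream run reached a mean of 8.89% ± 7.85 (SD, n = 27) at -261 bp. Rows from -588 to -384 bp lacked a value in at least 1 library, with means from 5.11% at -500 bp to 6.01% at -384 bp. At -384 bp the median was 0% and the highest library was at 100%.

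Rb1, which encodes the retinoblastoma protein, had the longest run, 213 positions from -625 to 1108 bp (chr14:73324843-73326576, taken as minus strand). Its level was 3.50% ± 1.01 (SD, n = 27), from 1.50% in 12 h replicate 3 to 6.27% in 42 h replicate 1, with a median of 3.49%. The mean hid a shoulder at the upstream edge, where levels were higher away from the gene. At -625 bp the mean was 27.7% ± 11.2 (SD, n = 27), at -578 bp 12.7% ± 5.04, and at -548 bp 7.25% ± 2.43, and at -474 bp again 12.7% ± 5.01. At the other edge, 1108 bp into the gene, the mean was 9.31% ± 7.55.

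A second Rb1 run of 7 positions lay deep in the gene, from 87834 to 87914 bp (chr14:73238037-73238117). It falls inside Lpar6, a lysophosphatidic acid receptor gene on the plus strand that sits within Rb1, from 146 to 226 bp past the Lpar6 start, so it can be read as a site of either gene. Its level was 1.59% ± 2.09 (SD, n = 27), and 11 libraries were at exactly 0%. The 3 libraries at 12 h were all at 0%. The 3 highest were 7.19% in 36 h replicate 1, 6.67% in 60 h replicate 2 and 5.99% in 48 h replicate 1. The run was lower than the Rb1 start run by 1.91 points on average, and it was higher in 5 of 27 libraries (difference -1.91 ± 2.44, SD; paired permutation test, adjusted p = 0.00102). Where runs were joined over 100 bp in place of 200 bp, which leaves a shorter start run, the difference was -0.699 and no longer passed (adjusted p = 0.202); without replicate 3 of every time point it was -1.47 (adjusted p = 0.0681).

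Ccnd1, which encodes cyclin D1, was the member with the most uneven pattern. Its start run, from -83 to 491 bp (chr7:144939340-144939914, taken as minus strand, 36 positions), stood at 2.24% ± 1.58 (SD, n = 27), with a lowest of 0.273%, a median of 1.80% and a highest of 6.66%. A short stretch of 8 positions from -977 to -751 bp (chr7:144940582-144940808) stood at 27.2% ± 9.41 (SD, n = 27), with a lowest of 3.98%, a median of 30.9% and a highest of 40.4%. Further upstream, from -2049 to -1432 bp (chr7:144941263-144941880, 58 positions), the level was back at 2.12% ± 1.22 (SD, n = 27). The methylated stretch thus stood between 2 runs near 2%.

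Within the stretch the levels formed a dip. The mean was 42.9% ± 17.0 (SD, n = 27) at -977 bp, 38.1% ± 16.7 at -954 bp, 33.1% ± 15.5 at -937 bp, 13.8% ± 10.7 at -869 bp, 16.3% ± 12.0 at -846 bp, 24.0% ± 12.8 at -797 bp and 25.7% at -751 bp. Single libraries varied widely, from 0% to 71.7% at -977 bp. Between the stretch and the start, 7 positions from -497 to -426 bp had values in 20 libraries only, with a mean of 2.39% ± 4.63 and a median of 0%.

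The stretch was higher than the Ccnd1 start run in 27 of 27 libraries, by 25.0 points ± 9.57 (SD; paired sign-flip permutation test, p = 1e-05, the smallest that 100000 resamples can give; adjusted p = 3e-05 over 6 pairs). The run inside the gene, from 1291 to 1965 bp (chr7:144937866-144938540, 40 positions), stood at 5.58% ± 2.35 and was higher than the start run in 24 of 27 libraries, by 3.34 points ± 2.51 (adjusted p = 3e-05). Within that run the far edge was highest, with a mean of 20.3% ± 14.0 at 1965 bp against 2.05% ± 1.34 at 1855 bp. The run from -2049 to -1432 bp differed from the start run by -0.121 points ± 1.73, was higher in 13 of 27 libraries and did not pass (adjusted p = 0.843). A start run under 5% with a more methylated run beside it was not particular to Ccnd1: of 682 autosomal genes with a start run under 5% and another run within 1 kb upstream, 188 (27.6%) had an upstream run of 20% or more.

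Over time the methylated stretch of Ccnd1 varied widely between replicates. The 12 h libraries were at 31.0%, 34.1% and 3.98%, the 18 h libraries at 22.4%, 28.4% and 20.8%, and the 24 h libraries at 21.1%, 34.6% and 36.9%. The 30 h libraries were at 20.7%, 23.3% and 31.1%, the 36 h libraries at 14.1%, 30.9% and 37.1%, and the 42 h libraries at 16.1%, 34.9% and 31.0%. The 48 h libraries were at 14.1%, 36.3% and 17.7%, the 54 h libraries at 35.3%, 35.8% and 40.2%, and the 60 h libraries at 40.4%, 19.8% and 22.8%. At 54 h all 3 libraries were high, with a mean of 37.1%, yet 7 of the other 8 time points held at least 1 library above 30%. The SD within time points was 10.0 points, and the test between time points did not pass (limma, adjusted p = 0.990 over all runs). The fitted 24 h amplitude was 2.79 points (SE 2.68, upper 95% limit 9.77) and the slope was 5.91 points per 48 h (SE 5.44), and neither passed (limma, adjusted p = 0.983 and 0.992). Single libraries moved both: the slope was 1.79 without 12 h replicate 3 and 3.83 without 60 h replicate 1, and the amplitude was 1.83 without 54 h replicate 3.

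**Figure D4:**
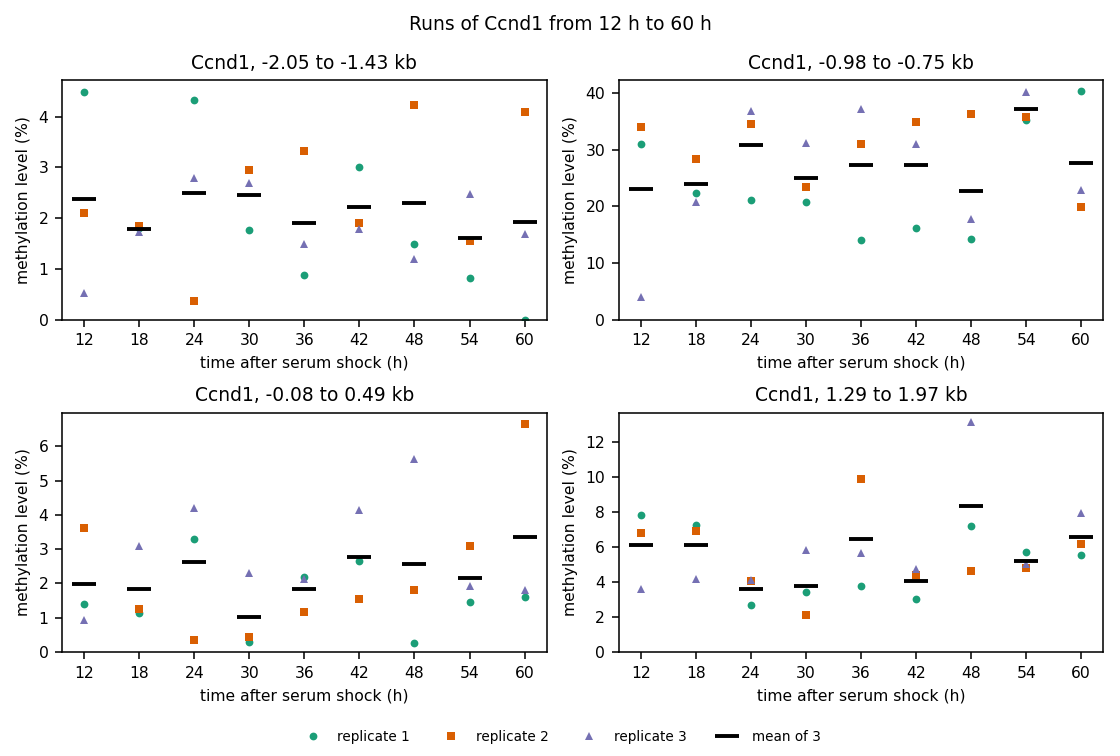
Level of the 4 Ccnd1 runs (percent, vertical axes, with different ranges) at 9 times after the serum shock (h, horizontal axis); symbols are the 3 replicates and bars their mean. In the run from -0.98 to -0.75 kb replicates of 1 time point spread over up to 30.1 points, and the groups overlap.

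E2f2, which encodes an E2F factor that drives entry into S phase, had the lowest start of the members. Its run from -55 to 702 bp (chr4:136172219-136172976, plus strand, 70 positions) stood at 1.20% ± 1.37 (SD, n = 27), with a lowest of 0.244% and a median of 0.753%. The highest library was 30 h replicate 3 at 7.25%, and the next was 54 h replicate 1 at 2.86%. Its start window ranked at percentile 2.61 among the 10483 gene-start windows, while Ccnb2 ranked at 19.9, Cdkn2c at 25.1, Cdkn1b at 42.5, Rb1 at 48.2, Mcm2 at 52.0 and Ccnd1, whose window includes the methylated stretch, at 66.3. In that order of window means, each neighbouring pair lay within 1 SD over libraries of the other, except Mcm2 at 3.66% ± 1.40 and Ccnd1 at 6.78% ± 2.13. The upstream edge of the E2f2 start was highest: the CpG of its single promoter CCGG site, at -55 bp, was at 9.72% ± 3.60 (SD, n = 27), against 0.418% for the lowest promoter CpG.

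Mcm2, which encodes a subunit of the helicase that opens DNA for replication, had a start run from -178 to 460 bp (chr6:88898320-88898958, minus strand, 55 positions) at 3.66% ± 1.40 (SD, n = 27), with a lowest of 1.23%, a median of 3.47% and a highest of 8.35% in 54 h replicate 3. Its second run, from -3920 to -3560 bp (chr6:88902340-88902700, 40 positions), lay 89 to 449 bp inside Tpra1, the neighbouring gene on the plus strand, and stood at 1.98% ± 1.58. That run was lower than the Mcm2 start run by 1.69 points on average (difference -1.69 ± 2.22, SD) and higher in 6 of 27 libraries (paired permutation test, adjusted p = 0.00064). Between both runs, 12 positions from -3294 to -3110 bp had values in 22 libraries, with a mean of 5.61% ± 8.14, a median of 2.53% and a highest of 32.4% in 18 h replicate 2.

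Position 412 of Mcm2 had the smallest p for a difference between time points of all 797 complete member positions tested one by one. Its 3 libraries were at 1.93%, 3.86% and 3.91% at 12 h, at 0%, 0% and 1.76% at 18 h, and at 0.742%, 1.44% and 3.07% at 24 h. They were at 2.80%, 6.38% and 6.51% at 30 h, at 9.98%, 11.7% and 12.3% at 36 h, and at 2.09%, 2.74% and 3.35% at 42 h. They were at 1.87%, 9.82% and 9.92% at 48 h, at 0%, 0% and 2.39% at 54 h, and at 5.54%, 8.09% and 9.48% at 60 h. The 36 h libraries lay above all others, and the 18 h and 54 h libraries lay under 3%. The adjusted p over all 871894 positions was 0.180 (limma, unadjusted p = 2.77e-05), so the position did not pass, and 0 of the 797 member positions did. Of all positions 0.00413% passed. The next smallest p of the members, 2.86e-05 and 6.86e-05 in limma, were those of the positions at 413 and 420 bp, close neighbours that are not separate evidence. The mean of the whole run did not pass (limma, adjusted p = 0.990 over all runs).

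Ccnb2, which encodes the mitotic cyclin B2, had a run of 36 positions just inside the gene, from 18 to 149 bp (chr9:70421405-70421536, minus strand), at 2.01% ± 1.99 (SD, n = 27). Its promoter is known to be repressed in quiescent cells through a CHR element (TTTGAA) and bound by NF-Y at CCAAT boxes. Both motifs were searched on both strands of the promoter, with no overlap between their matches there: CCAAT was found 3 times, starting at -87, -54 and -21 bp, and TTTGAA 2 times, starting at -167 and 4 bp. CCAAT occurs in 40.3% and TTTGAA in 18.8% of the 10583 RefSeq promoters. Neither motif contains a CpG, and the 6 measured CpGs, in capitals, lie past the start (chr9:70421505-70421804, minus strand).
Ccnb2: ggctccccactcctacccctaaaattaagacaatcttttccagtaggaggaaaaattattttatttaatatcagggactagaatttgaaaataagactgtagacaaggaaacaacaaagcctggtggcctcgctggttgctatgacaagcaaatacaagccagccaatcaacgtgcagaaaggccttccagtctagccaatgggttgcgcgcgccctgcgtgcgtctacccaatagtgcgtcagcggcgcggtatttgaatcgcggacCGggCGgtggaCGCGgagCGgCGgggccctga

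The Ccnb2 run had the smallest p of the 13 runs for a difference between time points. The 12 h libraries were at 4.09%, 5.31% and 5.52%, the 18 h libraries at 0%, 0.251% and 0%, and the 24 h libraries at 1.09%, 1.13% and 7.12%. The 30 h libraries were at 1.60%, 1.04% and 4.90%, the 36 h libraries at 0%, 1.94% and 1.39%, and the 42 h libraries at 0%, 1.31% and 0.478%. The 48 h libraries were at 1.09%, 0.957% and 0%, the 54 h libraries at 4.82%, 2.77% and 0.755%, and the 60 h libraries at 2.27%, 2.19% and 2.29%. The 12 h libraries were all above those of 18, 36, 42, 48 and 60 h, and overlapped those of 24, 30 and 54 h. The test between time points gave an unadjusted p of 0.0351 and an adjusted p of 0.990 (limma). The 60 h libraries were lower than the 12 h libraries by 2.72 points on average (difference -2.72, SE 1.33, unadjusted p = 0.0549, adjusted p = 0.931), which did not pass. Just beyond the run, at 230 bp, the mean was 10.1% ± 14.3 over 26 libraries, with 13 libraries at 0% and a highest of 46.2%.

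**Figure D5:**
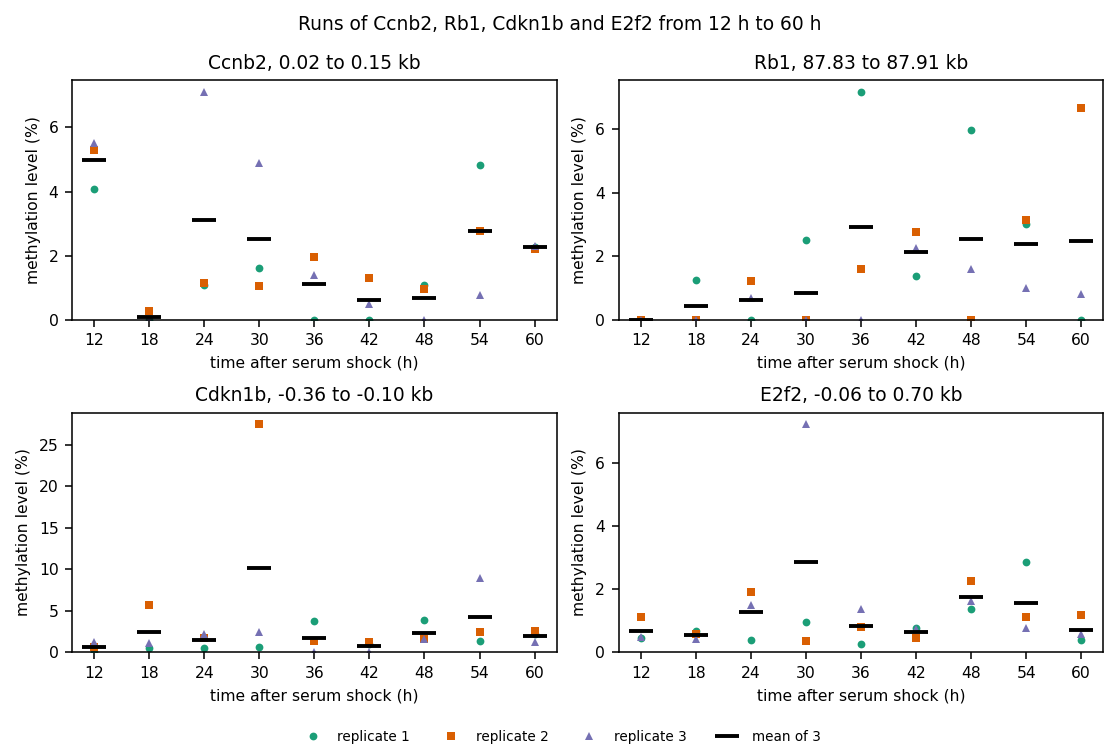
Level of 1 run each of Ccnb2, Rb1 (in the gene body), Cdkn1b (upstream of the start) and E2f2 (percent, vertical axes, with different ranges) at 9 times after the serum shock (h, horizontal axis); symbols are the 3 replicates and bars their mean. Ccnb2 is at 4.09% to 5.52% at 12 h and at 0% to 0.251% at 18 h, and the highest Cdkn1b value, 27.5%, is a single library.

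Across the time course no member run passed any test at an adjusted p under 0.05. For a 24 h rhythm 0 of 13 runs passed and 0 had an unadjusted p under 0.05, against 0.0% of all 18447 runs passing and 4.34% with an unadjusted p under 0.05. For any difference between time points 0 passed and 1 (Ccnb2) had an unadjusted p under 0.05, against 0.00542% and 4.3% of all runs. For a linear trend 0 passed and 1 (Rb1 body) had an unadjusted p under 0.05, against 0.0% and 4.99%. For 60 h against 12 h 0 passed and 0 had an unadjusted p under 0.05, against 0.0% and 5.33%. Counts of 0 or 1 among 13 runs are too few to be told from these shares. In the background 1 of 18447 runs, near Pnpla2, passed the test between time points. Most member runs had low levels. Of the 8473 runs under 5% mean level, 267, 240, 341 and 340 had an unadjusted p under 0.05 in limma, in the same order of tests.

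An upper limit on a rhythm has meaning only beside the level of its run. A rhythm cannot have an amplitude above the mean it swings around. Fitted 24 h amplitudes of the member runs lay between 0.136 points (Mcm2 start) and 2.85 points (Cdkn1b upstream), and their upper 95% limits, each the amplitude with an F-based margin added, lay between 1.14 and 9.77 points. For 11 of the 13 runs that limit was under 3 points. The same held for 9200 of all 18447 runs and for 7260 of the 8473 runs under 5% mean level. The other 2 member runs were the methylated stretch of Ccnd1, with 9.77 points, and the upstream run of Cdkn1b, with 6.58 points. At some runs the limit lay above the mean level, so it set no bound on a rhythm there. These were E2f2 (1.89 points against a mean of 1.20%), Ccnb2 (2.67 against 2.01%) and the Rb1 body run (1.84 against 1.59%). The upstream run of Cdkn1b (6.58 against 2.84%) was another, and in all other member runs the limit lay below the mean. The Cdkn1b values rest on 1 library: without 30 h replicate 2 its amplitude was 0.805 points, with an upper limit of 2.33 points. Leaving out a whole replicate number in turn, 9 to 10 of the 13 limits were under 3 points. Slopes were positive in 10 member runs and negative in 3, while over all runs 9114 were positive and 9333 negative; none of the member slopes passed, and runs of 1 gene share their libraries. The slope of the Rb1 body run was 2.79 points per 48 h (SE 1.14), with an unadjusted p of 0.0217 and an adjusted p of 0.976, so it did not pass. The libraries that stood out at 1 gene did not do so at every gene, but 48 h replicate 3 was among the 3 highest in 6 of 13 runs and 12 h replicate 3 and 36 h replicate 1 were each among the 3 lowest in 5. Of these, 48 h replicate 3 had the highest mean over all positions and 12 h replicate 3 the lowest. With any of them left out 0 of 13 runs passed any of the 4 tests.

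Other genes of the same pathway also had low levels in the run nearest to the start. Of 71 cell cycle genes outside the list, 57 could be oriented with the RefSeq promoter table and 51 had a start run. Only the run nearest to each start was taken for these levels. The median over the 7 members was 2.24%, with 7 of 7 under 5%, and over those 51 genes it was 2.57%, with 47 of 51 under 5%. The highest were E2f6 at 8.93% ± 1.68, Plk1 at 6.55% ± 1.99, Cdkn3 at 5.64% ± 3.39, Cdc25a at 5.07% ± 1.52 and Lin52 at 4.76% ± 1.64 (SD, n = 27). The lowest were Bub1 at 0.961% ± 0.868, Cdc25b at 1.23% ± 1.64, Rrm2 at 1.35% ± 1.09, Mdm2 at 1.39% ± 0.768 and E2f1 at 1.47% ± 1.24. E2f6 encodes a repressive E2F, Plk1 a mitotic kinase, Bub1 a spindle checkpoint kinase and Rrm2 a subunit of ribonucleotide reductase. Start runs further upstream were not ranked, and some were far higher. Among those with an unadjusted p under 0.05 in limma, Ccne1 stood at 75.6% (-1030 to -887 bp). E2f8 stood at 70.5% (-604 to -570 bp), and Fbxw7 stood at 4.34% (-930 to -861 bp). Of the 69 start runs of those 51 genes 0 passed in any of the 4 tests. For a rhythm 3 had an unadjusted p under 0.05 and between time points 2, against 4.34% and 4.3% of all runs. For a trend 3 had one and for 60 h against 12 h 3, against 4.99% and 5.33% of all runs.

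The start run most like each member's in its levels over 27 libraries, of those 51 genes, was E2f3 for Cdkn1b (Pearson r = 0.826), Cdk6 for E2f2 (0.693), Rbl1 for Cdkn2c (0.650), Cdk7 for Mcm2 (0.557), Tfdp2 for Ccnd1 (0.555), Ccnf for Rb1 (0.437) and Cdkn2d for Ccnb2 (0.343). Each is the highest of 51 coefficients over the same 27 libraries and is given as a description, without a test. The Cdkn1b run has 1 library at 27.5%, with the next at 8.89%. The E2f2 run has 1 at 7.25%, with the next at 2.86%. A single library of that kind can carry a coefficient, and the coefficients without it were not computed.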

How the data were processed

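Methylation levels were deposited by the authors as fractions from 0 to 1, with 1 row per position and 1 column per library; no read counts stood beside them, so the planned test for levels without counts was used. Per the submitters' processing notes, Trim Galore 0.4.0, cutadapt 1.9.1, Bismark 0.14.4, Bowtie2 and build mm10 were used; for the order of steps, settings, coverage filter and any smoothing, nothing is given in the sources used here. Neighbouring rows hold almost the same level, so positions were not counted as independent.

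Fractions were multiplied to percent. Gene coordinates and promoter sequences came from RefSeq tables of GRCm38.p6, the assembly mm10 names, and positions count from 1, since 99.98% of rows inside promoter sequences then fall on a CpG. Strand came from the promoter table for 8 members; Rb1 and Ccnd1 were taken as minus strand from general knowledge. Exons, introns and untranslated regions were not annotated here.

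Runs (gaps up to 200 bp, at least 3 positions, values in all 27 libraries) were fitted with limma 3.58.1 in R 4.3.3 on percentage points: a 24 h cosine and sine, time point as a factor, linear time, and 60 h minus 12 h, with Benjamini-Hochberg adjustment over all 18447 runs and a threshold of 0.05. The fit code was tested on simulated normal noise with added rhythms and slopes. That noise had no lower floor, so the test does not cover the low levels of most member runs. Runs of 1 gene were compared within libraries by two-sided sign-flip permutation (100000 resamples, adjusted over 6 pairs; Python 3.11.15, numpy 2.4.6, pandas 2.3.3). The labels give no batch. Named were all members, the pathway genes with the 5 highest and 5 lowest start levels, and for each member the most alike pathway start; other features singled out were chosen after their values were seen. Members, lists and tests were chosen with earlier results of these data known.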

Additional observations from a re-analysis of the deposited data

How the results depend on the processing

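Under every alternative run for a test, 0 member runs (or windows or positions) and 0 pathway start runs passed it. For all 4 tests these were values in at least 24 libraries, M-values, gaps of 100 or 500 bp, at least 10 positions, gene-start windows, single positions, mean library level as a covariate, and leaving out each library or each replicate number. Periods of 20 and 28 h and linear time as a further term were run for the rhythm only. With the replicate number as a block 0 member runs passed either. The smallest unadjusted p in limma were 0.0753 for the rhythm and 0.0457 between time points. They were 0.0188 for the trend and 0.0611 for 60 h against 12 h. Deviations from the time point means had a mean r of 0.00489 over 108 pairs of same-numbered libraries. Over 216 pairs with different numbers the mean r was -0.00242. A correlation over runs cannot see a shift common to all runs, so it does not settle whether the numbers pair the samples. Of the 6 differences between runs 4 passed; with at least 10 positions 2 of the remaining pairs passed, because the short Ccnd1 and Rb1 runs drop out, and leaving out libraries gave 3 to 5. Over left-out libraries and replicate numbers the 24 h amplitude ranged from 0.805 to 4.21 points at the upstream run of Cdkn1b and from 1.83 to 4.72 at the methylated stretch of Ccnd1, whose slope ranged from 1.79 to 10.2; the Rb1 body slope ranged from 1.76 to 3.51. The Ccnb2 slope of -1.28 points ranged from -2.29 to 0.0363 when libraries or replicate numbers were left out, the higher end without replicate 3. The Cdkn1b difference of 0.374 points became -0.317 with at least 24 libraries, -0.124 without replicate 1 and -0.207 without replicate 3 (range over left-out libraries -0.207 to 1.45). On the M-value scale that difference was 0.529 M-value units, which are not points, and passed (paired sign-flip permutation test, adjusted p = 0.0497). The small difference of the Ccnd1 run from -2049 bp, -0.121 points, became 0.0930 with gaps of 100 bp, 0.0450 without 48 h replicate 3, 0.367 without replicate 3 (range -0.417 to 0.367), and 2.92 with gaps of 500 bp, where that run merges with the methylated stretch at 5.16%. The Rb1 start level of 3.50% was 2.29% with gaps of 100 bp, and the Ccnd1 start level of 2.24% was 6.78% in the start window, which takes in the stretch. Other causes were not tested. Depth is unknown, so levels near 0% in single libraries cannot be told from sparse reads.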
